A study of Mus musculus with 12 samples.

Results

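The let-7a to let-7e miRNAs were followed in mouse cerebral cortex through their 7 precursors, mmu-let-7a-1, mmu-let-7a-2, mmu-let-7b, mmu-let-7c-1, mmu-let-7c-2, mmu-let-7d and mmu-let-7e. They were chosen by name, and all 7 were among the 589 precursors of the deposited table. A miRNA precursor is a hairpin RNA that Dicer cuts into short mature strands, and the mature strand guides Argonaute to messenger RNAs that pair with its seed, the bases near the 5′ end. The let-7 family is known for its abundance in the adult brain, where its members repress growth and cell-cycle genes, while Lin28 blocks the processing of its precursors in early development. Extracellular let-7 has also been described as a ligand of Toll-like receptor 7, a relative of the receptor TLR4 that was removed in the mice studied here.

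Small RNA was sequenced from the cortex of female C57BL/6J mice that were 7 weeks old at the start and then drank either water or water with 10% (v/v) ethanol for 5 months. The 4 groups were wild-type mice on water (WT), wild-type mice on ethanol (WT + EtOH), mice lacking TLR4, an innate immune receptor, on water (TLR4-KO) and mice lacking TLR4 on ethanol (TLR4-KO + EtOH). Each group had 3 libraries, each a pool from 3 of 9 mice, so that an SD over a group describes pools and not single mice. Small RNA libraries do not measure Tlr4 mRNA, so the knockout could not be verified from these values. In bulk cortex, a change in the number of cells of a type and a change in the RNA of each cell cannot be told apart.

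The 5 mature 5p sequences of the 7 precursors show how little separates the measured RNAs. The sequences are from RefSeq (GRCm38.p6), which matched all 7 precursors, and the seed, bases 2 to 8, is in capitals.
let-7a (from let-7a-1 and let-7a-2): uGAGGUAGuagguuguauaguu
let-7b: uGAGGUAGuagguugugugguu
let-7c (from let-7c-1 and let-7c-2): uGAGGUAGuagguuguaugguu
let-7d: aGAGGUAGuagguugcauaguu
let-7e: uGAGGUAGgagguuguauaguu
All 5 sequences had 22 bases and 1 shared seed. Counted from the 5′ end, with the base of let-7a first, let-7c differed from let-7a by A19G, let-7e by U9G, let-7b by A17G and A19G, and let-7d by U1A and U16C. let-7b and let-7c differed from each other by 1 base. The copies of let-7a, and those of let-7c, have the same 5p sequence, so that a read of this strand does not show which copy it came from, and how such reads were divided is not given in the sources used here. The values of these copies, and to a lesser degree those of members 1 base apart, are therefore uncertain as values of single genes.

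The 3p strands of the copies differ more, and they are printed to show which copies a read of that arm could tell apart.
let-7a-1-3p: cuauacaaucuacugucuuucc
let-7a-2-3p: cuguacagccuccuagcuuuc
let-7c-1-3p: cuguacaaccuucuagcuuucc
let-7c-2-3p: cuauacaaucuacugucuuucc
The 7 precursors gave 6 different 3p sequences, because let-7a-1 and let-7c-2 share theirs. The table gives 1 value for each precursor, with no division into arms.

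The 7 precursors come from 5 chromosomes, and each has at least 1 neighbouring miRNA gene on the same strand (GRCm38, GENCODE M21 and RefSeq). let-7a-1 (chr13:48538179-48538272, minus strand) and let-7d (chr13:48536012-48536114, minus strand) lie in exons of the lincRNA 6720427I07Rik, with let-7f-1 between them, 261 bases from let-7a-1 and 1714 from let-7d. let-7c-2 (chr15:85706603-85706697, plus strand) and let-7b (chr15:85707319-85707403, plus strand) are 621 bases apart in exons of the transcript Lncppara. let-7a-2 (chr9:41536716-41536811, plus strand) is in an intron of the transcripts 3110039I08Rik and Gm49317, 5211 bases from Mir100 and 45114 from Mir125b-1. let-7c-1 (chr16:77599657-77599750, plus strand) is in an intron of Mir99ahg, 656 bases from Mir99a and 46522 from Mir125b-2, and on the opposite strand an intron of Gm11146 spans it. let-7e (chr17:17830352-17830444, plus strand) is in an intron of Spaca6, 94 bases from Mir99b and 367 from Mir125a, and overlaps the miRNA annotation Gm25927 on the opposite strand.

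The deposited unit is a normalized score with no counts, so that depth is unknown and no fold change was formed. The highest value was 134.8 in each of the 12 libraries, and over the highest 55 places of each library the largest difference between libraries at the same place was 1.86. A value in this range therefore mostly reflects the place of a precursor in the order of its library. Of the miRNAs known from neurons (the miR-124, miR-128 and miR-9 precursors), 8 of 8 were in the table, with a mean value between 55.1 and 62.0 in every library. The 3 vessel precursors listed (miR-126a, miR-143 and miR-145a) had 64.1 to 67.9, and the 4 red blood cell precursors 54.8 to 63.9. The neuron list was thus not the highest, and these values cannot verify cortical identity. The 3 leukocyte precursors listed (miR-142a, miR-150 and miR-223) were all in the table, with a mean value between 34.9 and 43.2 in every library, and of these miR-223 was at 0 in all libraries.

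Replicate 1 of the WT + EtOH group and replicate 1 of both TLR4-KO groups have an order of precursors that differs from the order in another table of these libraries that accompanies the study, whereas the remaining libraries have almost the same order in both. The step behind this is not given in the sources used here. Within the deposited values, the median Spearman correlation with the other 11 libraries was 0.926 (WT + EtOH), 0.915 (TLR4-KO) and 0.937 (TLR4-KO + EtOH) in these 3 libraries, and 0.940 to 0.961 in the remaining 9. WT + EtOH replicate 1 and TLR4-KO replicate 1 also had the same value of let-7c-1 (107.8), let-7c-2 (109.3) and let-7e (70.6). Shared values were not particular to them. Replicate 3 of WT + EtOH and of TLR4-KO both had 88.7 (let-7b), 100.2 (let-7c-1) and 101.4 (let-7c-2). Because of the difference in order, results are given with and without the 3 libraries, replicate 1 of WT + EtOH and of both TLR4-KO groups.

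All 7 precursors were among the 50 highest precursors of every library. Averaged over the 12 libraries, the deposited values fell from let-7c-2 (103.2 ± 3.03, SD, n = 12) through let-7c-1 (101.9 ± 2.84), let-7a-2 (99.8 ± 4.51), let-7a-1 (94.6 ± 2.75), let-7b (89.1 ± 4.46) and let-7d (78.8 ± 3.06) to let-7e (75.8 ± 3.35). Since all the mature 5p strands have the same length, this order of levels is not altered by a division by that length. let-7c-2 was above let-7c-1 in 12 of 12 libraries, but by only 1.32 ± 0.451, which is less than the SD of either. The differences between let-7c-1 and let-7a-2 (2.13, in the same direction in 10 of 12 libraries) and between let-7d and let-7e (2.96, 12 of 12) were also no larger than the SD of at least 1 of the pair. let-7a-2 was above let-7a-1 by 5.18 (12 of 12), let-7a-1 above let-7b by 5.48 (11 of 12), and let-7b above let-7d by 10.3 (12 of 12), each more than the SD of either precursor. The exception to the step from let-7a-1 to let-7b was TLR4-KO replicate 1.

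**Figure D1:**
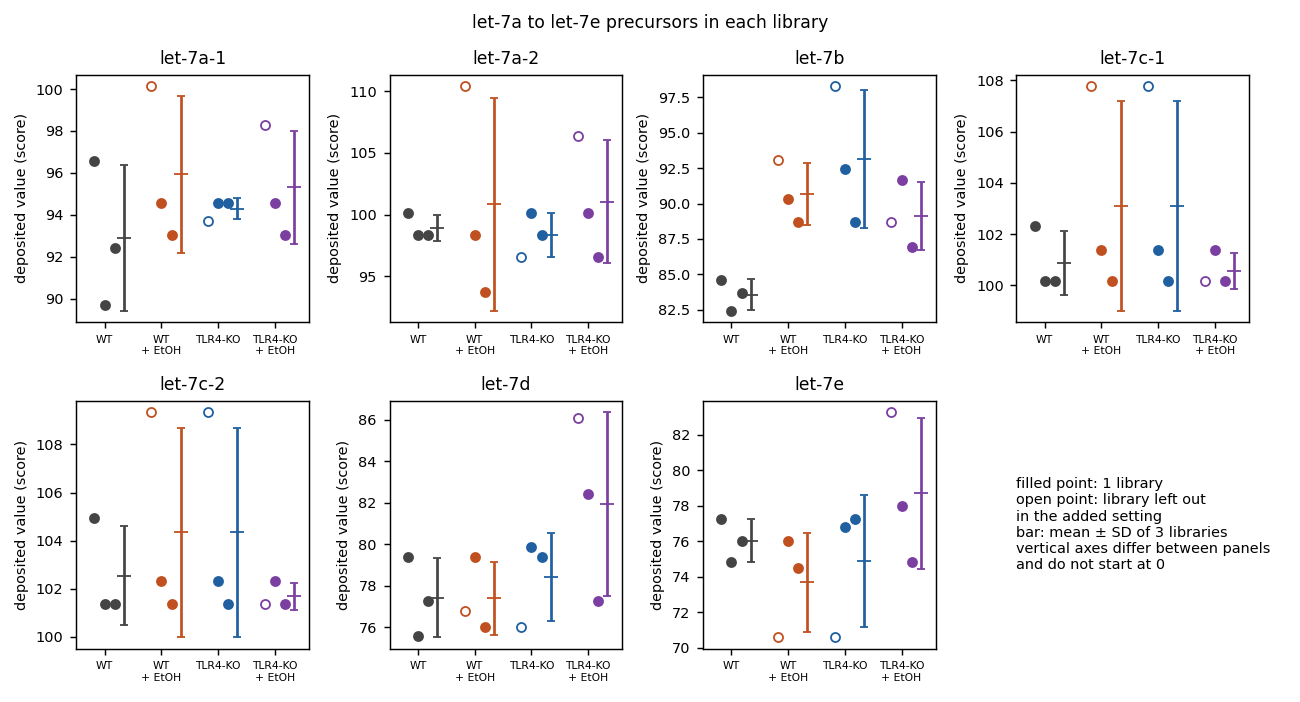
Deposited values (score) of the 7 precursors in each library by group, with bars for the mean ± SD of 3 libraries and open points for the 3 libraries left out in the added setting; the vertical axes do not start at 0. In let-7b the 3 WT libraries lie between 82.4 and 84.6, below all 9 others, and in let-7c-1 and let-7c-2 the open points of WT + EtOH and TLR4-KO stand above the rest.

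let-7b, which shares a transcript with let-7c-2, was the member whose values separated the groups most. Its value was 84.6, 82.4 and 83.7 in the 3 WT libraries and 93.0, 90.3 and 88.7 in WT + EtOH. In TLR4-KO it was 98.3, 92.4 and 88.7, and in TLR4-KO + EtOH 88.7, 91.7 and 86.9. The 3 WT libraries were the lowest of the 12, and the other 3 groups overlapped one another. In terms of place in the library, let-7b stood between 30 and 33 in WT. It stood between 18 and 25 after ethanol, between 14 and 25 without TLR4, and between 20 and 27 with both.

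Ethanol in wild-type cortex was examined first. let-7b differed by 7.11 ± 2.38 (SE) between WT + EtOH and WT, with a 95% confidence interval of 1.66 to 12.6, and did not pass the test (limma, Benjamini-Hochberg adjusted p = 0.233). The two-sided exact permutation test gave p = 0.1, the smallest that 3 against 3 libraries allow. Without the 3 libraries the difference was 5.93 (adjusted p = 0.189), and the groups still did not overlap. None of the 7 members passed the test here, against 1.70% of all precursors (10 of 589). Only 324 of the 589 were above 0 in at least 1 library, and a precursor at 0 in all libraries cannot pass. Such precursors are counted in this share, in those of 589 given below and in the adjustment. At an unadjusted p under 0.05, 1 member (let-7b) and 74 of all precursors were counted. let-7b was also the 1 member whose 2 groups did not overlap, higher in WT + EtOH. That is 14.3% of the members, near the 13.3% of the 324 precursors above 0 in at least 1 library that were higher without overlap. No member was lower without overlap, against 17.3% of these precursors. Beside let-7b, miR-451a, a red blood cell miRNA, fell by 14.6 (limma, adjusted p = 0.0346) and the leukocyte miRNA miR-150 rose by 7.41 (adjusted p = 0.0444), with differences of -13.3 and 8.74 in the absence of the 3 libraries. No other precursor of their lists passed, and the lists did not move as a whole. Of the red blood cell precursors, miR-486b differed by 8.19 and miR-486a by -0.383, and miR-144 was higher in WT + EtOH. Of the leukocyte precursors, miR-142a differed by -2.81 and miR-223 was at 0. All 4 red blood cell precursors were in the table. Their mean value was 60.8 to 61.6 in WT + EtOH and 60.2 to 63.9 in WT. That of the 3 leukocyte precursors was 35.04 to 43.2 in WT + EtOH and 37.4 to 38.2 in WT. The part of these values in the difference of let-7b was not tested.

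The remaining members overlapped between WT + EtOH and WT. The values of let-7a-1 were 96.6, 89.7 and 92.4 in WT and 100.2, 94.6 and 93.0 in WT + EtOH, and those of let-7a-2 were 100.2, 98.3 and 98.3 in WT and 110.4, 98.3 and 93.7 in WT + EtOH. let-7c-1 had 102.3, 100.2 and 100.2 in WT and 107.8, 101.4 and 100.2 in WT + EtOH. In each of these 3 precursors the highest value was that of WT + EtOH replicate 1. let-7c-2 had 104.9, 101.4 and 101.4 in WT and 109.3, 102.3 and 101.4 in WT + EtOH. The values of let-7d were 79.4, 75.6 and 77.3 in WT and 76.8, 79.4 and 76.0 in WT + EtOH, and those of let-7e were 77.3, 74.8 and 76.0 in WT and 70.6, 76.0 and 74.5 in WT + EtOH. The intervals of all 6 differences included 0, from let-7e (-2.35, interval -8.24 to 3.55) to let-7a-1 (3.04, interval -2.28 to 8.37). The median difference of the 7 members was 1.90, and that of the 324 precursors above 0 was 0. Without the 3 libraries, let-7a-2 differed by -2.91, let-7c-1 by -0.119, let-7c-2 by -0.709 and let-7d by 0.280, so that 4 of the 7 members changed direction.

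The loss of TLR4 without ethanol was examined by TLR4-KO against WT. let-7b differed by 9.56 ± 2.38 (SE), with an interval of 4.11 to 15.02, and missed the threshold of 0.05 (limma, adjusted p = 0.0874; exact permutation p = 0.1). The call depended on the setting. Among the 285 precursors above 0 in at least 3 libraries the adjusted p was 0.0418, without TLR4-KO replicate 3 it was 0.0305 with a difference of 11.8, and without the 3 libraries it was 0.138 with a difference of 6.98. No member passed the main test, against 2.55% of all precursors (15 of 589), and 1 member had an unadjusted p under 0.05, against 72 of all precursors. let-7b was higher without overlap, against 13.0% of the 324 precursors above 0, and no member was lower without overlap, against 15.4%. The mean value of the oligodendrocyte precursors miR-219a-1, miR-219a-2 and miR-338 (3 of 3 in the table) was 9.74 to 12.2 in TLR4-KO and 14.3 to 15.2 in WT, with both miR-219a precursors at 0 in all 3 TLR4-KO libraries. miR-219a-1 was also at 0 in all 3 WT libraries. Neither miR-219a-2 (-4.56; limma, adjusted p = 0.756) nor miR-338 (-5.64, adjusted p = 0.554) passed the test. Here miR-451a fell by 17.6 (limma, adjusted p = 0.00948) and miR-150 rose by 9.28 (adjusted p = 0.00958). The other precursors of their lists did not pass: miR-486b differed by 8.76, miR-486a by 0.486 and miR-144 by -4.13, and miR-142a by -11.8. The mean value of the red blood cell list was 57.9 to 61.0 in TLR4-KO, with miR-144 at 0 in all 3 libraries. That of the leukocyte list was 36.2 to 38.4. The part of these values in the difference of let-7b was not tested.

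The remaining members overlapped between TLR4-KO and WT. In TLR4-KO, let-7a-1 had 93.7, 94.6 and 94.6, let-7a-2 had 96.6, 100.2 and 98.3, and let-7d had 76.0, 79.9 and 79.4. let-7c-1 had 107.8, 101.4 and 100.2, let-7c-2 had 109.3, 102.3 and 101.4, and let-7e had 70.6, 76.8 and 77.3. The 2 let-7c copies were highest and let-7e lowest in TLR4-KO replicate 1. These differences ran from -1.15 (let-7e) to 2.22 (let-7c-1), with intervals that all included 0. The median over the 7 members was 1.41, against 0 over the 324 precursors above 0. Without the 3 libraries, let-7a-2 (0.308), let-7c-1 (-0.119), let-7c-2 (-0.709) and let-7e (0.992) changed direction.

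**Figure D2:**
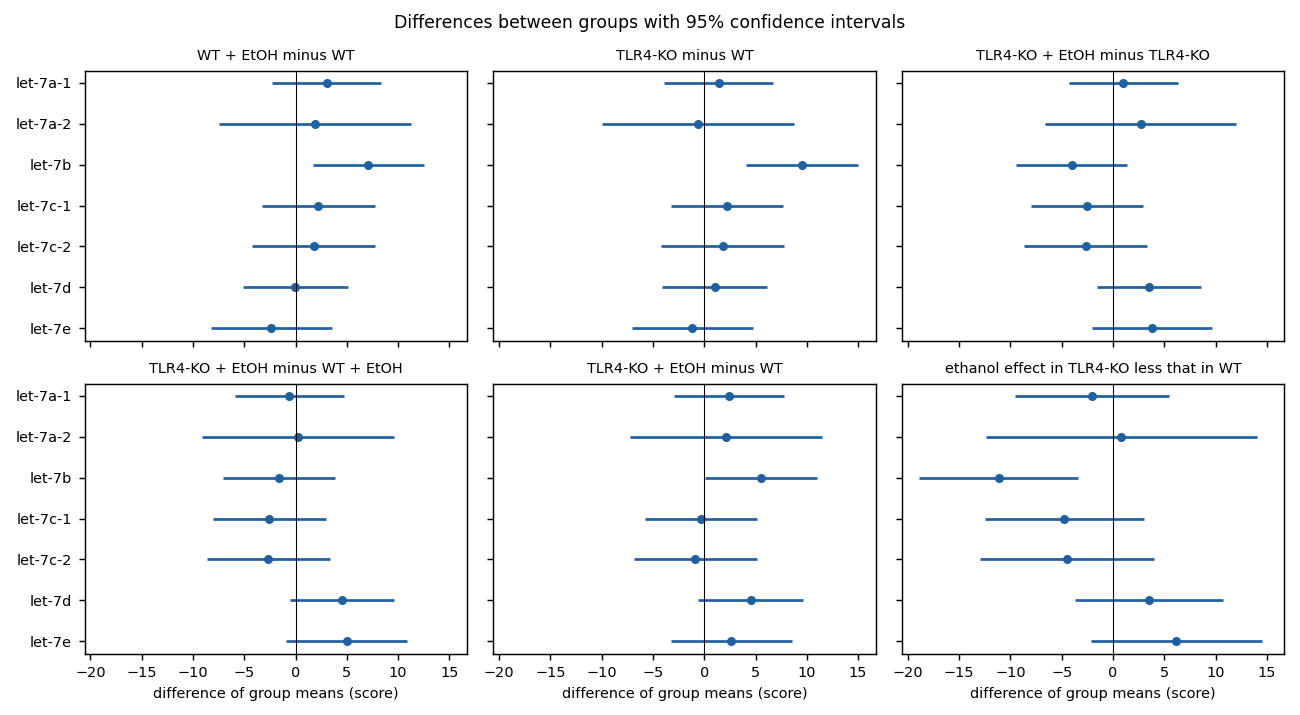
Differences of group means (score) for the 7 precursors in the 6 comparisons, as points with 95% confidence intervals from limma. The intervals of let-7b exclude 0 in both comparisons of ethanol or genotype alone with WT, in the comparison of TLR4-KO + EtOH with WT and in the difference of the ethanol effects, before any adjustment, and no other interval does.

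Ethanol in the absence of TLR4 was examined by TLR4-KO + EtOH against TLR4-KO. In TLR4-KO + EtOH, let-7d had 86.1, 82.4 and 77.3 and let-7e had 83.3, 78.0 and 74.8, with the highest value of each in replicate 1. let-7a-1 had 98.3, 94.6 and 93.0, let-7a-2 had 106.4, 100.2 and 96.6, let-7c-1 had 100.2, 101.4 and 100.2, and let-7c-2 had 101.4, 102.3 and 101.4. The groups overlapped for all 7 members. No member passed the test, against 0.340% of all precursors (2 of 589), and no member had an unadjusted p under 0.05, against 41 of all precursors. Groups that did not overlap made up 7.10% (higher) and 4.01% (lower) of the 324 precursors above 0. The differences ran from -4.04 (let-7b, interval -9.49 to 1.41) to 3.81 (let-7e, interval -2.09 to 9.70), with a median of 1.02 against 0. The difference of let-7b was -1.46 without TLR4-KO replicate 1 and -1.26 without the 3 libraries. let-7a-1 (-0.767), let-7a-2 (-0.864) and let-7e (-0.627) changed direction without the 3 libraries, that of let-7d moved from 3.51 to 0.224, and those of let-7c-1 and let-7c-2 (-2.54 and -2.66 with all libraries) were 0.

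The loss of TLR4 under ethanol was examined by TLR4-KO + EtOH against WT + EtOH. The groups overlapped for all 7 members, and differences ran from -2.66 (let-7c-2, interval -8.65 to 3.33) to 5.00 (let-7e, interval -0.893 to 10.9), with a median of -0.616 against 0. No member passed the test, against 0.509% of all precursors (3 of 589), and none had an unadjusted p under 0.05, against 27 of all precursors. Groups that did not overlap made up 4.32% (higher) and 4.63% (lower) of the 324 precursors above 0. let-7b differed by -1.59, with an interval of -7.04 to 3.86. The differences of let-7a-1, let-7c-1 and let-7c-2 were 0 without the 3 libraries. The other 4 kept their direction, among them let-7e at 1.16 and let-7b at -0.208.

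Both changes together were examined by TLR4-KO + EtOH against WT. This comparison and those of WT + EtOH and TLR4-KO with WT share the 3 WT libraries. let-7b differed by 5.52 (interval 0.0716 to 10.98; limma, adjusted p = 0.446), and without the 3 libraries by 5.73 (adjusted p = 0.228). No member passed the test, against 1.87% of all precursors (11 of 589), and let-7b was the 1 member with an unadjusted p under 0.05, against 63 of all precursors. It was also higher without overlap, against 14.2% of the 324 precursors above 0, and no member was lower without overlap, against 15.4%. let-7d differed by 4.51 (interval -0.581 to 9.61), and the median of the 7 members was 2.42 against 0. let-7a-2 changed direction without the 3 libraries, from 2.12 to -0.556. In this comparison miR-451a fell by 20.9 (limma, adjusted p = 0.00364), and miR-150 differed by 6.27 (adjusted p = 0.0813). The other precursors of their lists did not pass: miR-486b differed by 6.18, miR-486a by -0.847 and miR-144 by -4.13, and miR-142a by -11.8. The mean value in TLR4-KO + EtOH was 54.8 to 60.2 for the red blood cell list, with miR-144 at 0 in all 3 libraries, and 34.9 to 38.1 for the leukocyte list. It was 13.5 to 15.1 for the oligodendrocyte list, with both miR-219a precursors at 0, of which miR-219a-1 was also at 0 in all 3 WT libraries. The part of these values in the difference of let-7b was not tested.

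The difference of the ethanol effects, that in TLR4-KO less that in WT, was tested as an interaction. For let-7b it was -11.2 ± 3.37 (SE), with an interval of -18.9 to -3.44 (limma, adjusted p = 0.205), and -7.19 without the 3 libraries (adjusted p = 0.357). No member passed the test, against 1.19% of all precursors (7 of 589), and let-7b was the 1 member with an unadjusted p under 0.05, against 74 of all precursors. The differences of the other 6 members ran from -4.76 (let-7c-1) to 6.15 (let-7e), with a median of -2.02 over the 7 members against 0.335 over the 324 precursors above 0. That of let-7e was 0.172 without the 3 libraries, and let-7c-1 (0.119), let-7c-2 (0.709) and let-7d (-0.0566) then changed direction. The difference of the ethanol effects was -10.4 for miR-150 (limma, adjusted p = 0.0511) and 11.3 for miR-451a (adjusted p = 0.263). On their lists it was 2.78 for miR-142a, -10.8 for miR-486b, -0.950 for miR-486a and -1.20 for miR-144. The part of these values in that of let-7b was not tested. The moderated F test over all 4 groups was passed by no member, against 2.38% of all precursors (14 of 589), and the lowest adjusted p was again that of let-7b (0.236).

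Over the 12 libraries, let-7a-1, let-7c-1, let-7c-2, let-7d and let-7e had a smaller SD (2.75 to 3.35) than the median of 4.51 over the 190 precursors above 0 in all libraries. let-7b (4.46) and let-7a-2 (4.51) were near that median. The 2 copies of let-7c had a Pearson correlation of 0.990 over the 12 libraries and 0.927 over the 9, and the 2 copies of let-7a 0.822 and 0.395. let-7d and let-7e, which lie on different chromosomes, had 0.869 and 0.909. The correlation of let-7c-1 with let-7e was -0.695 over 12 libraries and 0.630 over 9. These values are descriptions, since the libraries share the set of levels and the groups.

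The precursors outside the 7 with the most similar pattern were ranked by Pearson correlation over the 12 libraries among 183 candidates. For let-7b they were mir-139 (0.959, and 0.935 over the 9 libraries), mir-873b (0.910 and 0.915) and mir-129-2 (0.853 and 0.683). For let-7d and let-7e the same 3 precursors came first, with a correlation over the 12 libraries of 0.846 for let-7d and 0.938 for let-7e (mir-181b-1), 0.834 and 0.912 (mir-154), and 0.811 and 0.893 (mir-411). Over the 9 libraries these were 0.729 and 0.685 (mir-181b-1), 0.821 and 0.765 (mir-154), and 0.455 and 0.454 (mir-411). For let-7c-1 they were mir-431 (0.902), mir-330 (0.895) and mir-129-2 (0.833), and for let-7c-2 mir-431 (0.870), mir-330 (0.867) and mir-370 (0.786). Over the 9 libraries the correlation with mir-431 was 0.344 for let-7c-1 and 0.192 for let-7c-2, and that with mir-330 was 0.696 and 0.465. The value of let-7c-1 with mir-129-2 was then -0.0493, and that of let-7c-2 with mir-370 was 0.533. let-7a-1 was most like mir-1839 (0.771), mir-151 (0.755) and mir-378c (0.735), and let-7a-2 most like mir-1839 (0.892), mir-106b (0.841) and mir-124-1 (0.824). With mir-1839 the values over the 9 libraries were 0.330 and 0.369. For let-7a-1 they were 0.287 (mir-151) and 0.573 (mir-378c), and for let-7a-2 0.685 (mir-106b) and 0.481 (mir-124-1).

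Of 7 further precursors of the let-7 family that were listed, 6 were in the table (let-7f-1, let-7f-2, let-7g, let-7i, let-7j and mir-98), and let-7k was not analysed here. Their mature sequences show what sets them apart from let-7a to let-7e.
let-7f: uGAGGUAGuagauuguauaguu
let-7g: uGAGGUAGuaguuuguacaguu
let-7i: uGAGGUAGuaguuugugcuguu
miR-98: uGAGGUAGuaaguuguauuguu
let-7j: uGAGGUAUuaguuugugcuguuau
let-7f differs from let-7a by G12A, let-7g by G12U and U18C, let-7i by G12U, A17G, U18C and A19U, and miR-98 by G11A and A19U. The sequence of let-7j has another last base in the seed positions and is longer (24 bases). None of the 6 passed the test in any comparison.

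let-7g, which is encoded apart from the 7, was 81.6, 77.3 and 78.8 in WT and 69.7, 72.7 and 75.6 in WT + EtOH. The mice without TLR4 had 78.0, 81.6 and 81.6 on water and 70.6, 73.9 and 75.6 on ethanol. Both ethanol groups lay below both water groups. Of the 324 precursors above 0 in at least 1 library, 17.3% were lower without overlap in WT + EtOH against WT. In TLR4-KO + EtOH against TLR4-KO the share was 4.01%. The difference of let-7g was -6.56 in wild type (limma, adjusted p = 0.190) and -7.02 in TLR4-KO (adjusted p = 0.341), and without the 3 libraries -5.07 and -6.86. The values of let-7f-2 were 91.0, 88.7 and 90.0 in WT and 79.9, 83.3 and 86.9 in WT + EtOH, with no overlap and a difference of -6.53 (adjusted p = 0.196). Over the 6 precursors the median difference was -5.73 for WT + EtOH against WT and -4.97 for TLR4-KO + EtOH against TLR4-KO, while it was 1.90 and 1.02 over the 7 members. These medians include the 3 libraries. Without them, only let-7b (5.93), let-7a-1 (0.927) and let-7d (0.280) of the members were positive in wild type, and only let-7d (0.224) in TLR4-KO. The 6 precursors stayed negative, from -8.86 (mir-98) to -1.17 (let-7i) in wild type and from -6.86 (let-7g) to -2.54 (mir-98) in TLR4-KO. This contrast between the lists was not tested.

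**Figure D3:**
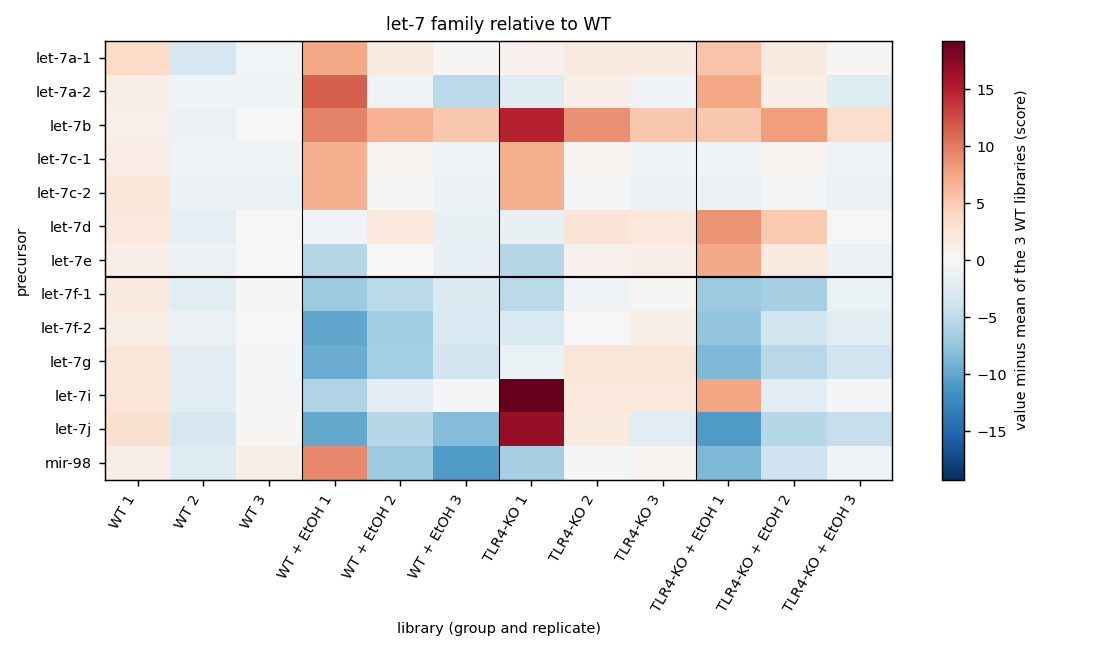
Value minus the mean of the 3 WT libraries (score, colour) for the 7 members (above the line) and 6 other let-7 family precursors (below) in each library. let-7b is above its WT mean in all 9 libraries of the other groups, and let-7f-1, let-7f-2, let-7g and let-7j are below theirs in all 6 ethanol libraries. Each of the latter is also below its WT mean in a TLR4-KO library on water.

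Neighbouring miRNA genes are often transcribed together, and the members were set beside their neighbours. The neighbours were let-7f-1 (beside let-7a-1 and let-7d), mir-100 and mir-125b-1 (beside let-7a-2), mir-99a and mir-125b-2 (beside let-7c-1) and mir-125a (beside let-7e). mir-99b was not analysed here. 2 of the 6, mir-125a and mir-125b-2, passed the test, both higher, in each of the 3 other groups against WT, where 1.70% (WT + EtOH), 2.55% (TLR4-KO) and 1.87% (TLR4-KO + EtOH) of the 589 precursors passed in either direction. The miR-125 family, like lin-4 of worms, is known from the timing of development. mir-125a was 109.3, 111.3 and 111.3 in WT and either 114.9 or 115.5 in each of the other 9 libraries, and mir-125b-2 was 111.3, 110.4 and 110.4 in WT and likewise 114.9 or 115.5 in the others. Thus mir-125a moved from places 5 to 7 in WT to places 3 and 4, and mir-125b-2 from places 5 and 6 to places 3 and 4. mir-125b-1 and mir-125b-2 are copies for the same mature miR-125b-5p, so the limit on reads of the let-7 copies applies to them too. mir-125b-1 differed from WT by 1.65 in WT + EtOH, 4.67 in TLR4-KO (limma, adjusted p = 0.438) and 3.79 in TLR4-KO + EtOH (0.713), and did not pass.

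The difference between WT + EtOH and WT was 4.22 for mir-125a (limma, adjusted p = 0.00437) and 4.77 for mir-125b-2 (3.22e-05). Between TLR4-KO and WT it was 4.64 (0.00215) and 4.36 (6.69e-05), and between TLR4-KO + EtOH and WT 4.43 (0.00305) and 4.56 (4.61e-05). The difference of the ethanol effects also passed, at -4.43 (limma, adjusted p = 0.0280) for mir-125a and -4.56 (0.000730) for mir-125b-2. The spread behind these p-values was small. In all 3 WT + EtOH libraries mir-125a was 114.9 and mir-125b-2 was 115.5, and in both TLR4-KO groups the SD of each was 0.358. The TLR4-KO libraries on water already held places 3 and 4. The interaction call of mir-125a was lost without replicate 2 or 3 of WT + EtOH (adjusted p = 0.0709 and 0.0855), replicate 2 or 3 of TLR4-KO (0.0766 and 0.0575), replicate 1 or 2 of TLR4-KO + EtOH (0.0657 and 0.0894), or the 3 libraries together (0.0913). With places used in the fit instead of values none of these calls passed (adjusted p of 0.405 to 0.670). let-7e, beside mir-125a, differed from WT by -2.35 in WT + EtOH and -1.15 in TLR4-KO, and let-7c-1, beside mir-125b-2, by 2.22 in both, with no call. mir-100 was 76.8, 78.0 and 76.8 in WT and 94.6, 83.7 and 80.6 in WT + EtOH, without overlap, and did not pass (9.13, adjusted p = 0.267). Without WT + EtOH replicate 1 this difference was 5.00. Of the 324 precursors above 0 in at least 1 library, 13.3% were higher without overlap in WT + EtOH against WT.

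Differences within a library between 2 precursors were then formed for 2 copy pairs and 9 pairs of 1 cluster. These 11 pairs were written down after some of their values had been seen, so that they are descriptions and support no result. The 2 copy pairs overlapped in all 5 comparisons of 2 groups. let-7a-2 was above let-7a-1 by 6.04 ± 2.53 in WT and 4.90 ± 4.91 in WT + EtOH, and in the mice without TLR4 by 4.05 ± 1.39 on water and 5.73 ± 2.28 on ethanol (SD, n = 3). let-7c-2 was above let-7c-1 by 1.13 to 1.67 on average in the 4 groups. Of the 9 cluster pairs, 5 did not overlap between WT + EtOH and WT, 4 between TLR4-KO and WT, 3 between TLR4-KO + EtOH and WT, and 0 in the other 2 comparisons. The first 3 counts were 8, 5 and 6 without the 3 libraries, which leaves 2 libraries in each group but WT. No share over other pairs of precursors was formed, so that these counts have no background to be set against. The pairs also share precursors, and the comparisons with WT share its 3 libraries.

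The difference of let-7b minus let-7c-2 was -20.3, -18.9 and -17.6 in the WT libraries and nearer to 0 in each of the other 9. It averaged -19.0 ± 1.35 in WT and -13.7 ± 2.31 in WT + EtOH, and in the mice without TLR4 -11.2 ± 1.38 on water and -12.6 ± 1.90 on ethanol (SD, n = 3). Against WT the shift was 5.32, 7.77 and 6.39, and without the 3 libraries it was 6.64, 7.69 and 6.43. The exact permutation p was 0.1 in each, the smallest possible here. It supports no result, because the pair was chosen with some values known and the 3 comparisons share the WT libraries.

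In the cluster on chromosome 13, let-7a-1 was above let-7f-1 by 7.05 ± 1.59 in WT and 15.01 ± 5.85 in WT + EtOH, and in the mice without TLR4 by 10.3 ± 2.42 on water and 14.4 ± 5.56 on ethanol (SD, n = 3). The groups WT + EtOH and WT did not overlap. The difference of let-7d minus let-7f-1 was -8.43 ± 0.362 in WT and -3.52 ± 3.26 in WT + EtOH, and without TLR4 -5.55 ± 1.06 on water and 0.989 ± 7.51 on ethanol, with the 3 WT libraries again below all others. let-7a-1 minus let-7d, the outer 2 of the cluster, was 15.5 ± 1.59 in WT and overlapped with WT in all groups. let-7e minus mir-125a was -34.6 ± 2.27 in WT, and lay below this without overlap in WT + EtOH (-41.2 ± 2.79) and TLR4-KO (-40.4 ± 3.36) but not in TLR4-KO + EtOH (-36.4 ± 4.55). It was also lower without overlap in TLR4-KO + EtOH (-4.17 against WT) when the 3 libraries were left out. let-7a-2 minus mir-100 was 21.7 ± 1.52 in WT and 14.5 ± 1.39 in WT + EtOH, also without overlap.

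**Figure D4:**
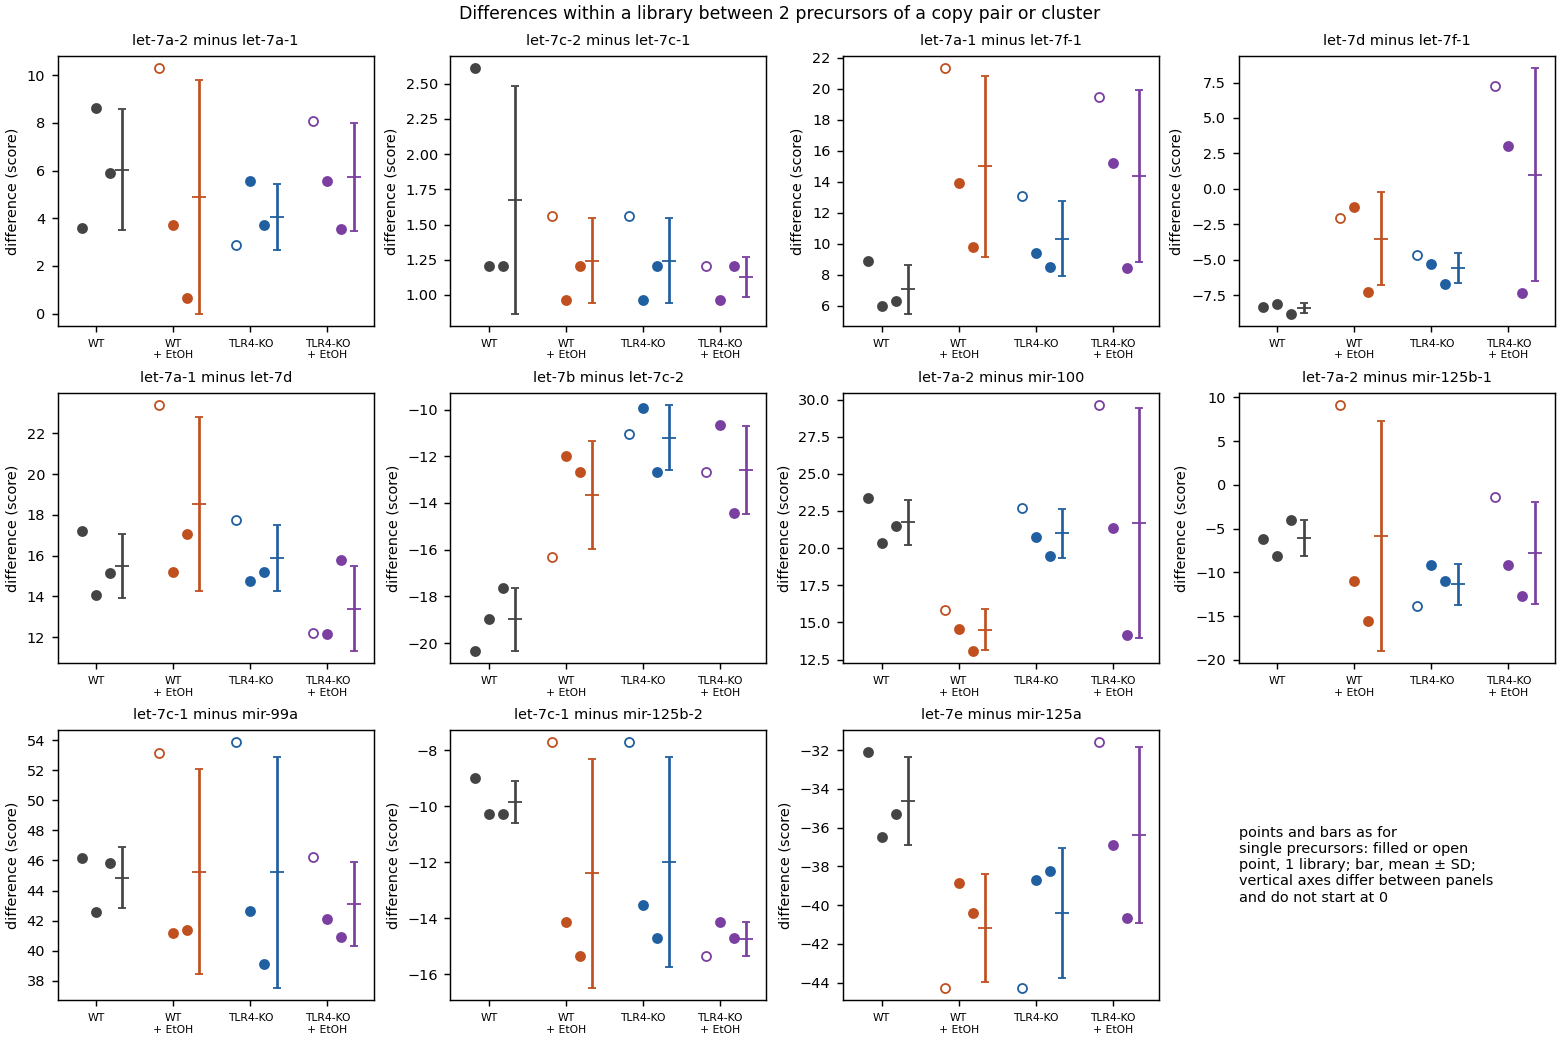
Differences (score) between 2 precursors in the same library, for 2 pairs of copies and 9 pairs of 1 cluster, by group, with points for libraries and bars for mean ± SD (n = 3); axes differ and do not start at 0. The 3 WT libraries lie below all others in let-7b minus let-7c-2 and in let-7d minus let-7f-1, and the groups of both copy pairs overlap.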

How the data were processed

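Small RNA libraries of mouse cortex (4 groups, 3 pooled libraries each, groups from the sample labels) were analysed. Per the study's methods, reads were trimmed (cutadapt), aligned to non-coding RNA databases (Bowtie2 2.2.5, TopHat), filtered and counted, and the counts were scaled by TMM; quality control used FastQC 0.11.6, and the submitters' processing notes name GRCm38. The table the authors deposited holds a normalized score per precursor and library (589 precursors, 324 above 0 in at least 1 library, 190 in all 12), whose last steps are not given in the sources used here. It was used as it stands, with no pseudocount or filter, and depth is unknown.

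limma 3.58.1 in R 4.3.3 was fitted with 1 mean per group over all 12 libraries (prior degrees of freedom 0.308, total 8.31), with Benjamini-Hochberg adjustment over 589 precursors and a threshold of 0.05. The fit was also run on simulated data with independent normal noise. Those data had no precursors without spread and no levels shared between libraries, so that this run does not cover these features of the deposited values. Exact permutation tests were two-sided (scipy 1.17.1). Because 3 against 3 libraries cannot go below 0.1, they cannot pass 0.05. Pairs of precursors were differences within a library.

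The members and lists were chosen with earlier results of these data known. All 7 members, the other let-7 family precursors, the neighbours in their clusters and, for each member, the 3 most similar precursors were named by rule; the 11 pairs were chosen after values were seen. The setting without replicate 1 of WT + EtOH and of both TLR4-KO groups was added after the data were seen, because their order differed from that in another table of the study, from which no value was taken. Other alternatives were another normalization, median centring, ranks, a filter, only the groups compared, a replicate block (the labels number the libraries but do not say what a number shares; deviations from the group means correlated over 0.1 in all 3 same-numbered pairs of TLR4-KO with TLR4-KO + EtOH, 0.101 to 0.153, and in no other 2 groups in all 3), 2 variance priors, averaged copies and each library left out.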

Additional observations from a re-analysis of the deposited data

Results flagged for a closer look

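The ethanol effect in TLR4-KO less that in WT passed the interaction test for 2 cluster neighbours of the members. It was -4.43 for mir-125a (limma, adjusted p = 0.0280) and -4.56 for mir-125b-2 (adjusted p = 0.000730), while that of let-7e, beside mir-125a, was 6.15 and that of let-7c-1, beside mir-125b-2, -4.76, and neither passed. These were 0.172 (let-7e) and 0.119 (let-7c-1) without replicate 1 of WT + EtOH and of both TLR4-KO groups. For mir-125a the call was lost, with a difference of -4.33 or -4.43, without WT + EtOH replicate 2 (adjusted p = 0.0709), WT + EtOH replicate 3 (0.0855), TLR4-KO replicate 2 (0.0766), TLR4-KO replicate 3 (0.0575), or replicate 1 (0.0657) or 2 (0.0894) of TLR4-KO + EtOH. Without those 3 libraries together it was -4.53 (0.0913). For both it was lost among precursors above 0 in at least 3 libraries (0.157 and 0.149) and with ranks (0.670 and 0.614). For mir-125b-2 it held with each single library left out. Both precursors held only places 3 and 4 in the 9 libraries outside WT. The other copy of mir-125b-2, mir-125b-1, had a difference of the ethanol effects of -2.53, which did not pass.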

How the results depend on the processing

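Under the planned settings other than leave-one-out, no difference of a member changed direction. The count of members passing in TLR4-KO against WT rose from 0 to 1 (let-7b) among precursors above 0 in at least 3 libraries (adjusted p = 0.0418) and without TLR4-KO replicate 3 (0.0305), and was 0 to 1 over the leave-one-out fits. The counts in the other comparisons were 0 in every fit. For let-7b against WT the adjusted p ranged over all settings from 0.0740 to 0.567 with ethanol, from 0.0305 to 0.296 without TLR4 and from 0.159 to 0.889 with both.

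Without replicate 1 of WT + EtOH and of both TLR4-KO groups, 15 of 42 differences changed direction. In WT + EtOH against WT they were let-7a-2 (-2.91), let-7c-1 (-0.119), let-7c-2 (-0.709) and let-7d (0.280), and in TLR4-KO against WT let-7a-2 (0.308), let-7c-1 (-0.119), let-7c-2 (-0.709) and let-7e (0.992). In TLR4-KO + EtOH against TLR4-KO they were let-7a-1 (-0.767), let-7a-2 (-0.864) and let-7e (-0.627), and against WT let-7a-2 (-0.556). In the difference of the ethanol effects they were let-7c-1 (0.119), let-7c-2 (0.709) and let-7d (-0.0566). The cause was not tested.

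With each library left out in turn, its group keeping 2 libraries and sharing the spread of the others, 17 differences changed direction in at least 1 of 12 fits. In WT + EtOH against WT the ranges were -2.91 to 5.45 (let-7a-2), -0.119 to 3.69 (let-7c-1), -0.709 to 3.28 (let-7c-2) and -1.01 to 0.965 (let-7d). In TLR4-KO against WT they were -0.201 to 3.25 (let-7a-1), -1.48 to 0.308 (let-7a-2), -0.119 to 3.69 (let-7c-1), -0.709 to 3.28 (let-7c-2) and -2.34 to 0.992 (let-7e). In TLR4-KO + EtOH the range against TLR4-KO was -0.480 to 2.15 (let-7a-1). Against WT + EtOH the ranges were -2.11 to 1.498 (let-7a-1) and -3.33 to 5.03 (let-7a-2), and against WT -0.556 to 4.35 (let-7a-2), -0.723 to 0.402 (let-7c-1) and -1.46 to 0.321 (let-7c-2). In the difference of the ethanol effects they were -3.87 to 0.0909 (let-7a-1) and -2.76 to 5.604 (let-7a-2).

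With the replicate number as a block, 0 members passed in each comparison, and the lowest adjusted p of a member was 0.0539 (let-7b, TLR4-KO against WT). In TLR4-KO + EtOH against TLR4-KO, where all 3 same-numbered pairs correlated over 0.1, the block moved the count over all precursors from 2 to 3. It changed no call of a member. The labels do not say that the numbers pair libraries, and the main test took them as pairs in no comparison. Over all groups 10 of 18 pairs with the same number had correlated deviations over 0.1 (range -0.109 to 0.153), and 6 of 12 libraries correlated best with their own number.

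The count of all precursors passing moved by over 1.5 times between settings, from 4 to 33 in WT + EtOH against WT (10 as reported), 11 to 31 in TLR4-KO against WT (15), 0 to 7 in TLR4-KO + EtOH against TLR4-KO (2), 0 to 4 against WT + EtOH (3), 7 to 26 against WT (11), 2 to 22 in the difference of the ethanol effects (7) and 4 to 38 for any difference (14). The 12 differences computed for let-7f-1, let-7f-2, let-7g and let-7j and that of mir-100 kept their direction and stayed outside the threshold in all settings, but not always their size (let-7j in TLR4-KO + EtOH against TLR4-KO was -12.4, and -16.2 to -4.88 over the settings other than ranks). The calls of mir-125a against WT were lost with only the groups compared (adjusted p of 0.0602 to 0.0922), and among precursors above 0 in at least 3 libraries in WT + EtOH (0.0794) and TLR4-KO + EtOH (0.0859), as was that of mir-125b-2 in TLR4-KO + EtOH (0.0732). The deposited values carry no counts, and 3 pools per group limit what could be detected.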
